A study of Arabidopsis thaliana with 24 samples.

Results

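The response of normal Arabidopsis thaliana roots to cadmium was read from 6 of the 24 arrays of the series, the 3 arrays of wild-type (WT) roots after 18 h of cadmium chloride and the 3 arrays of untreated WT roots. WT plants were of the accession Col-0 and were grown in hydroponic culture. The members described here are the 22746 probe sets left of 22810 when the 64 control probe sets are set aside, taken over all genes and functions and not chosen by any measured value. The cadmium chloride dose is uncertain, since the labels write 50 µM for the series but 50 mM in each sample's protocol. They do not state the time of day at which untreated roots were taken. A further 6 arrays of oas-a1.1 roots entered the model. oas-a1.1 is a T-DNA insertion line (SALK_072213) of the gene for the main cytosolic enzyme of cysteine synthesis, and its roots were likewise untreated or treated for 18 h. WT shoots, untreated or treated for 24 h, are quoted in a single place. Whole roots were sampled, and in such bulk RNA fewer cells of a type and less RNA per cell cannot be told apart. The labels call the 3 arrays of a group biological replicates, and their number limits the precision of every value.

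Cadmium is a toxic metal that enters roots through carriers for iron, zinc and other nutrient metals and binds thiol groups of proteins. Plants hold it with glutathione and with phytochelatins, which are made from glutathione, and store the complexes in the vacuole. This use of glutathione draws on sulfate assimilation and on the cycle in which glutathione reductase restores oxidised glutathione, and cadmium is also known to disturb iron supply and the lignification of root walls.

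All values are log2 RMA values, in which the lowest reading on the 6 arrays was 3.27. A gene read near that floor in a group may lie at background there, so that its difference is understated. Across probe sets the arrays of a group correlated at 0.971 to 0.989 and arrays of different root groups at 0.954 to 0.978, as a description over probe sets that share an array. The control probe set for 25S ribosomal RNA read 5.6 on cadmium replicate 1 and 9.8 to 11.96 on the other 5 arrays. Among these 6 arrays, 1 treated array stands apart and no untreated array does. On the oas-a1.1 root arrays in the model it read 6 on untreated replicate 1, 4.75 on cadmium replicate 1 and 10.81 to 11.87 on the rest. Refits on arrays high in 25S, at or above 7, left out WT cadmium replicate 1 and replicate 1 of both oas-a1.1 root groups. The part of the 25S level in the results was not tested beyond those refits and refits with that level as a covariate. A single gene was listed for 13513 of the probe sets, several genes for 503 and none for 8730, and only genes of the first kind are named below. Defining markers of root cells were few under a listed name. The root hair genes EXPA7 and EXPA18 were read on all 6 arrays, with a summed level of 7.81 to 8.0 untreated and 7.82 to 8.44 under cadmium (log2 of the sum). The 3 genes listed for endodermis and cortex summed to 7.51 to 8.35 and 7.57 to 7.93. AT5G35580, whose place in that list is doubtful, read highest of them on every array, and AT1G62500 stayed near the floor (4.3 to 4.78). The 2 genes listed for meristem and cap summed to 6.1 to 6.59 and 6.23 to 7.14. BBM was near the floor on every array, and the place of the other, GH9C1, in that list is doubtful. Neither sum is read as a measure of its cell type. None of these 7 listed genes passed the test, where 1.15% of single-gene probe sets rose and 2.05% fell, and no phloem or xylem marker was measured. Of 3 green tissue markers, LHCB4.1 and PORB differed by -0.21 and -0.64 without passing, while RCA passed at 1.24 (adjusted p = 0.0455). RCA encodes the activase of the carbon-fixing enzyme Rubisco, and its call was lost without any of 5 arrays, all but cadmium replicate 1. The summed level of the 3 green markers was 8.82 to 9.48 in untreated and 8.7 to 9.38 in cadmium-treated roots.

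More probe sets fell than rose among those that passed the test in cadmium-treated roots. An adjusted p under 0.05 in limma was reached by 889 probe sets (3.91%), of which 372 (1.64%) rose and 517 (2.27%) fell. The change was at least 2-fold in 194 of the rises (0.853%) and 248 of the falls (1.09%). The median rise was 1.03 and the median fall -0.97 on the log2 scale, against a median of 0.02 over all probe sets. The 3 cadmium values lay wholly above or below the 3 untreated values in all 889 calls, as they did in 3647 of all probe sets (16.0%). Among probe sets with a single gene, 432 of 13513 passed (3.2%), 155 rising (1.15%) and 277 falling (2.05%), and the other 457 calls cannot be named here. The largest rise of any probe set, 4.27, is one of those without a name. The number of calls moved with the model and the arrays used. It was 1837 with array weights (594 rises and 1243 falls), 1547 with the replicate number as a block (567 and 980) and 1409 with all 24 arrays in a model (539 and 870). Without cadmium replicate 1 there were 261 rises and 549 falls, and without untreated replicate 3 there were 272 and 557. Without cadmium replicate 2 the counts were 257 and 257, without cadmium replicate 3 they were 212 and 254, without untreated replicate 1 they were 207 and 229, and without untreated replicate 2 they were 194 and 234. The plot of size against adjusted p shows that the genes with the smallest p were COR27 among the falls and GR1 among the rises.

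**Figure D1:**
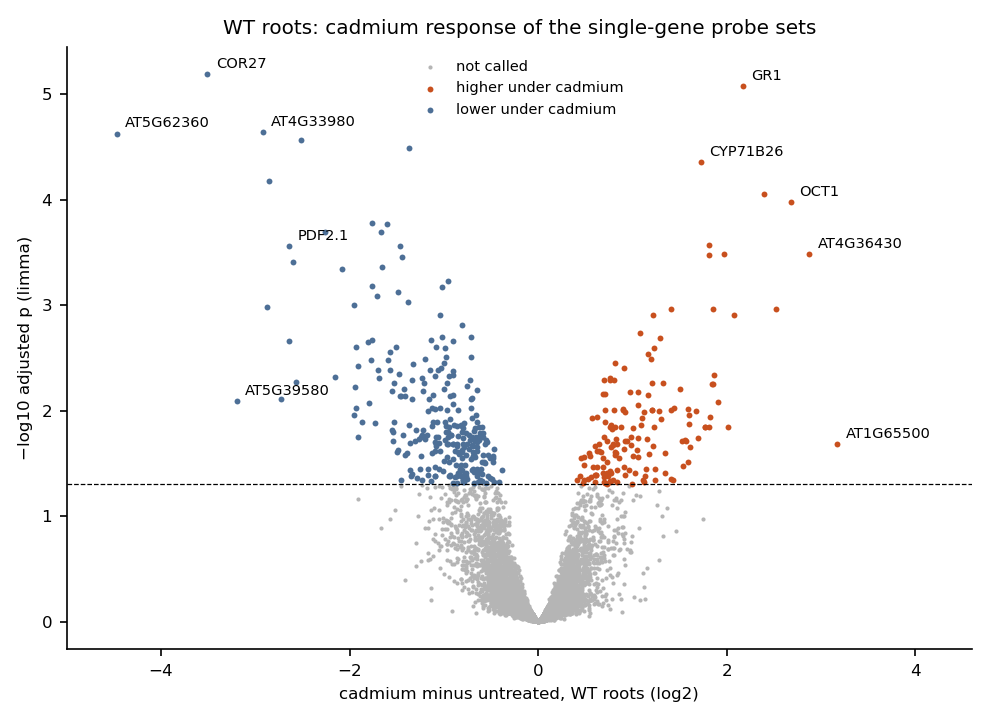
Each point is a probe set with a single gene, placed by its log2 difference between cadmium-treated and untreated WT roots (horizontal) and by −log10 of its adjusted p in limma (vertical), with the dashed line at an adjusted p of 0.05. Orange points are the 155 rises and blue points the 277 falls, and the differences reach from -4.47 for AT5G62360 to 3.17 for AT1G65500.

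Both glutathione reductase transcripts rose, that of the cytosolic form 4.49-fold and that of the organellar form 1.36-fold. GR1 (AT3G24170), the cytosolic and peroxisomal enzyme, read 7.42, 7.41 and 7.32 in untreated roots and 9.8, 9.37 and 9.48 under cadmium. Its groups lay far apart, and the difference of 2.17 ± 0.13 (SE, n = 3 and 3) had an adjusted p of 8.45e-06 (limma). GR (AT3G54660), the enzyme of plastids and mitochondria, read 7.47, 7.43 and 7.68 untreated and 8.02, 8.01 and 7.88 under cadmium. Those groups were also apart but close, and the difference of 0.44 ± 0.10 had an adjusted p of 0.0412, a call lost without any of 5 arrays, all but untreated replicate 3. It was lost as well on the 6 arrays alone, with all 24 arrays in a model, with arrays centred on their medians, in the upper 60% of probe sets by level, with a trended and robust prior and on arrays high in 25S. These were the 2 measured members of the list on cysteine and glutathione synthesis, so that the enzymes that make cysteine, glutathione and phytochelatins were not read by name.

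Of 4 measured genes of sulfate assimilation 1 rose, none fell, and the median of the 4 was 0.30. The riser was AT1G04770 (SDI2), a gene known to be induced in sulfur-limited plants and to lower glucosinolate synthesis. It read 6.71, 6.21 and 6.19 in untreated roots and 8.5, 7.97 and 7.94 under cadmium. The groups did not overlap, and the rise of 1.77 ± 0.34 (adjusted p = 0.0143) was lost only without untreated replicate 2 among the single arrays left out. The ATP sulfurylases APS3 and APS4, which open the pathway, differed by 0.32 (adjusted p = 0.697) and 0.29 (adjusted p = 0.471), each with overlapping groups. Sulfite reductase, SIR, read 9.83, 9.95 and 9.79 untreated and 9.98, 9.99 and 9.58 under cadmium, a difference of -0.01 ± 0.14.

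In the list on metal chelation and transport, 1 of 5 measured genes rose, none fell, all 5 differed upward and the median was 0.38. The riser was OCT1 (AT1G73220), which encodes a carrier for carnitine and related organic cations and is not itself a metal transporter. OCT1 read 4.07, 4.18 and 4.51 in untreated roots and 7.22, 6.44 and 7.13 under cadmium. It went from near the floor to a middle level, 6.39-fold higher (2.68 ± 0.23, adjusted p = 0.000106). MT1C, a metallothionein that binds metals through cysteines, read 12.43, 12.03 and 12.55 untreated and 12.65, 12.62 and 12.78 under cadmium. Its groups lay just apart, and the difference of 0.35 ± 0.19 did not pass (adjusted p = 0.5). The zinc transporter gene ZIP9 stayed between 4.28 and 4.85 on the 6 arrays, with a difference of 0.31 (adjusted p = 0.344). AT5G52750 and AT5G52760, which encode proteins with a heavy-metal-associated domain, differed by 0.84 (adjusted p = 0.143) and 0.38 (adjusted p = 0.604).

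Genes of the iron deficiency response did not move together. Of 7 measured members of the list, 1 rose and 1 fell, and the median was -0.05. bHLH121, another regulator of this response that was not on the list, fell as well (-0.93 ± 0.22, adjusted p = 0.0415). AT1G47400, which encodes a small IRON MAN peptide that signals iron shortage, read 4.42, 4.67 and 4.72 untreated and 5.91, 6.94 and 7.2 under cadmium. Cadmium replicate 1 was the lowest of the treated arrays but still above all untreated ones, and the rise was 2.08 ± 0.26, 4.23-fold (adjusted p = 0.00123). BHLH101, a transcription factor of the same response, read 4.4, 4.26 and 4.24 against 4.63, 4.57 and 4.89, and its difference of 0.40 ± 0.12 did not pass (adjusted p = 0.0974). Of 3 measured genes around coumarins, phenolics that roots release to mobilise iron, 1 fell. BGLU42, a beta-glucosidase that frees the coumarin scopoletin, read 6.65, 6.71 and 6.68 untreated and 5.99, 5.89 and 6.05 under cadmium. Its difference of -0.70 ± 0.13 passed (adjusted p = 0.0117) but not without untreated replicate 2 or cadmium replicate 2. AT3G12900, the scopoletin 8-hydroxylase, read 6.18, 6.64 and 5.81 untreated and 4.56, 4.86 and 5.33 under cadmium, groups that do not overlap, with a difference of -1.29 ± 0.45 that did not pass (adjusted p = 0.179). AT3G13610, which makes the scopoletin precursor, differed by 0.12, and the regulator PYE and the metal carrier gene AT3G58060 by -0.26 and -0.05. The plot of these lists by array shows how few of their members part the groups clearly.

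**Figure D2:**
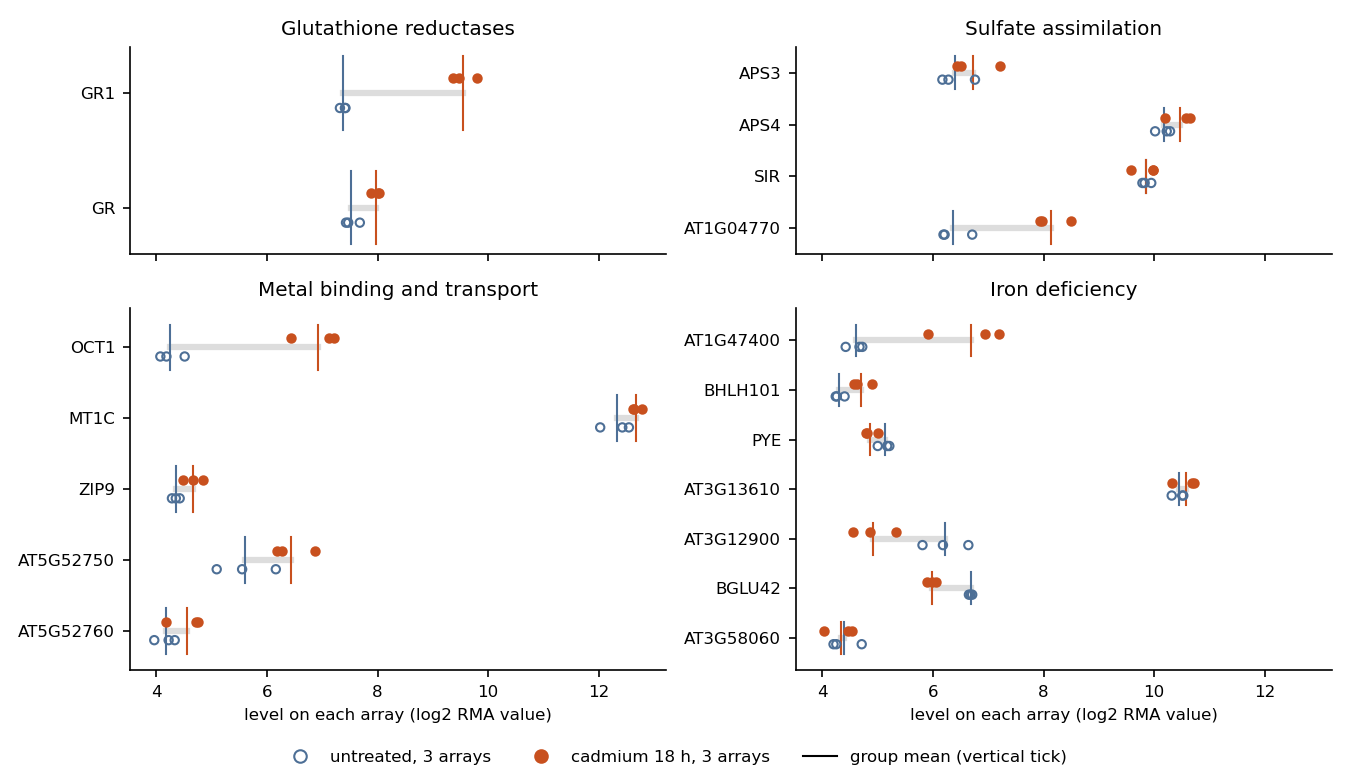
Levels of the measured members of the glutathione, sulfate, metal and iron lists on each array, in log2 RMA values, with open blue points for the 3 untreated and filled orange points for the 3 cadmium-treated WT root arrays and vertical ticks for group means. GR1, OCT1, AT1G04770 and AT1G47400 part by 1.77 to 2.68 log2 units, while most other members differ by less than 0.5.

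The 15 largest rises among named genes ran from 1.82 to 3.17. AT1G65500 had the largest, with 5.13, 5.85 and 5.18 in untreated roots and 8.11, 8.48 and 9.08 under cadmium. Its difference of 3.17 carried a large error (SE 0.66, adjusted p = 0.0209), the untreated oas-a1.1 arrays in the same model having an SD of 1.74, and the call was lost without any of 5 arrays, all but cadmium replicate 1. AT4G36430, a class III peroxidase of the cell wall, read 8.14, 8.19 and 6.8 untreated and 10.46, 10.49 and 10.8 under cadmium. Untreated replicate 3 lay below its group, but every treated array was above every untreated one, and the rise was 2.87 ± 0.29 (adjusted p = 0.000329). AT3G16800, a type 2C protein phosphatase, read 6.97, 6.64 and 6.68 against 9.44, 9.1 and 8.93 (2.39 ± 0.20, adjusted p = 8.81e-05).

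Lipid and polyamine genes were among them. AT1G73600, a methyltransferase that makes phosphocholine for membrane lipids, read 8.26, 8.19 and 8.16 untreated and 10.12, 9.99 and 9.96 under cadmium. Both groups were tight and far apart, with a rise of 1.82 ± 0.33 (adjusted p = 0.0115). It was the single measured member of the phosphate starvation list. AT1G67360, which encodes a coat protein of lipid droplets, rose by 1.86 ± 0.30 (7.25, 7.05 and 7.13 against 9.24, 8.67 and 9.09, adjusted p = 0.00553). AT5G15950, an S-adenosylmethionine decarboxylase, which feeds polyamine synthesis, read 4.31, 4.29 and 4.56 untreated and 6.29, 6.2 and 6.23 under cadmium, a rise of 1.85 ± 0.23 (adjusted p = 0.00108). AT2G37440, of the inositol polyphosphate 5-phosphatase family, rose by 1.91 ± 0.33 (adjusted p = 0.00834). AT2G36690, of the 2-oxoglutarate-dependent dioxygenases, read 5.67, 5.95 and 6.08 against 7.72, 8.0 and 7.9 (1.97 ± 0.20, adjusted p = 0.000325). AT5G47980, an acyltransferase of the BAHD family in the thalianol triterpene cluster, read 5.93, 5.67 and 4.94 untreated and 7.81, 6.77 and 7.55 under cadmium (1.86 ± 0.29, adjusted p = 0.00459). AT1G18980, a germin-like protein of the cell wall, rose by 1.85 ± 0.30 (adjusted p = 0.00557). The remaining 2, AT1G14960 of the major latex proteins and AT4G11190 of the dirigent proteins, are described with their families. Of the 15 calls, 13 held without any single array, the exceptions being AT1G65500 and AT4G11190. Cadmium replicate 1 was the treated array farthest from the untreated mean for 10 of the 15, and the nearest for 4. It was the farthest for 4 of the 15 largest falls and the nearest for 7.

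**Figure D3:**
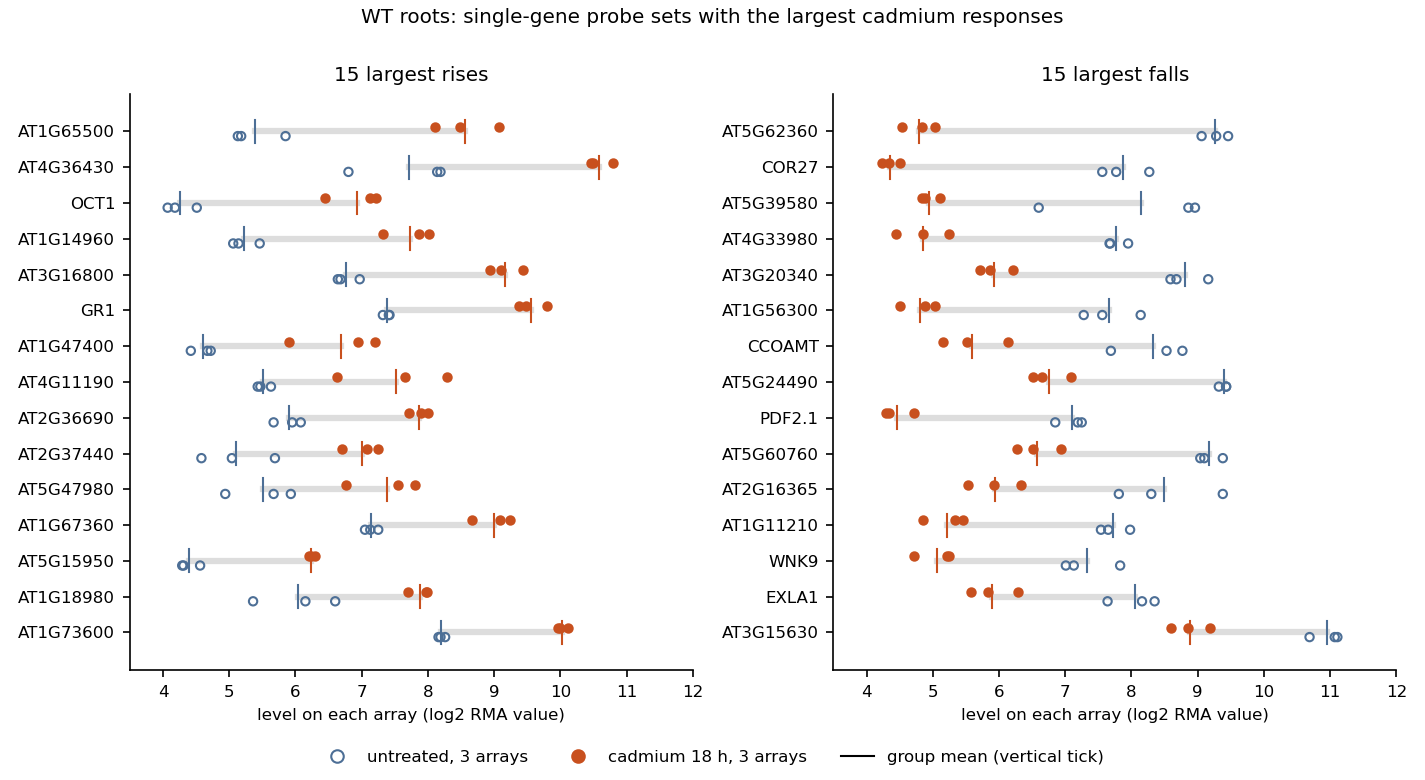
Levels on each array, in log2 RMA values, of the 15 named genes with the largest rises (left) and the 15 with the largest falls (right), with open blue points for untreated and filled orange points for cadmium-treated WT roots, ticks for group means and a grey bar between them. No gene has overlapping groups, a condition of the choice, and untreated replicate 3 lies apart from its group in AT4G36430 (6.8) and AT5G39580 (6.6).

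The 15 largest falls ran from -2.08 to -4.47, and all 15 calls held without any single array. AT5G62360, of the family of invertase and pectin methylesterase inhibitors, read 9.28, 9.46 and 9.06 in untreated roots and 5.03, 4.53 and 4.84 under cadmium. This was the largest fall of any probe set, 22.1-fold (-4.47 ± 0.30, adjusted p = 2.36e-05). EXLA1, an expansin-like wall protein, read 8.35, 8.16 and 7.64 untreated and 5.83, 5.58 and 6.28 under cadmium (-2.15 ± 0.33, adjusted p = 0.00477). CCOAMT, an O-methyltransferase of the caffeoyl-CoA type used in phenylpropanoid synthesis, read 8.77, 8.53 and 7.69 against 5.52, 5.15 and 6.13 (-2.73 ± 0.46, adjusted p = 0.00778). WNK9, a kinase of the WNK family, differed by -2.26 ± 0.22 (adjusted p = 0.000204). AT1G56300, which encodes a protein with a DnaJ chaperone domain, went from 7.56, 8.14 and 7.28 to 5.04, 4.89 and 4.5 (-2.85 ± 0.23, adjusted p = 6.7e-05). AT5G24490, annotated as a ribosomal protein of the plastid type, read 9.43, 9.43 and 9.32 untreated and 7.09, 6.51 and 6.65 under cadmium (-2.64 ± 0.36, adjusted p = 0.00218). The other members for which no role is given here, AT3G20340, AT5G60760, AT1G11210 and AT3G15630, differed by -2.88, -2.60, -2.51 and -2.08. AT3G15630 went from levels of 11.11, 11.07 and 10.69 to 8.6, 9.18 and 8.86 (adjusted p = 0.000451).

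Of the 3 measured genes of the circadian clock and its outputs, the list's 2 cold-regulated members fell and the core clock gene did not pass. COR27 (AT5G42900), a cold-induced gene whose product represses clock genes, read 7.56, 8.27 and 7.77 in untreated roots and 4.5, 4.24 and 4.34 under cadmium. The treated values lie near the floor, so that the 11.4-fold fall (-3.51 ± 0.19, adjusted p = 6.49e-06) may understate the change. Its relative AT4G33980 (COR28) read 7.95, 7.67 and 7.68 untreated and 4.45, 4.86 and 5.24 under cadmium (-2.92 ± 0.20, adjusted p = 2.28e-05). GI, a core clock protein, read 8.22, 8.14 and 8.1 untreated and 7.99, 8.11 and 8.05 under cadmium, a difference of -0.10 ± 0.12 (adjusted p = 0.796). AT2G16365 (PCH1), which binds the light receptor phytochrome B and was not on the list, read 7.81, 9.38 and 8.3 against 5.93, 5.54 and 6.33 (-2.56 ± 0.41, adjusted p = 0.00534). The hour of harvest of the untreated roots is not stated. Its part in these 3 falls cannot be told apart from that of cadmium. The same holds for every other difference between cadmium-treated and untreated roots given here.

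Among genes of abscisic acid, cold and dehydration 2 of 4 fell and none rose, with a median of -0.40. LTI30, a dehydrin, a protein that shields cells when water is lost, read 11.95, 11.97 and 11.76 untreated and 9.93, 9.7 and 10.23 under cadmium. Its groups lay apart by more than a unit, and the difference of -1.94 ± 0.31 (adjusted p = 0.00596) held without any single array. The dehydrin COR47 read 12.05, 12.43 and 12.23 against 11.49, 11.36 and 11.51, and its difference of -0.78 ± 0.19 (adjusted p = 0.0469) was lost without any of the 6 arrays, with arrays centred on their medians and with the 25S covariate. COR15A and COR15B, plastid proteins of cold tolerance, stayed between 4.11 and 5.29 on the 6 arrays and differed by -0.02 and 0.16. Of 5 small RCI2-type membrane peptides, which are induced by cold and salt, 2 fell and none rose, where 2.05% of single-gene probe sets fell. AT4G30650 read 8.64, 8.44 and 8.45 untreated and 6.54, 6.36 and 7.01 under cadmium (-1.87 ± 0.35, adjusted p = 0.0129), a call lost without untreated replicate 1 or cadmium replicate 2. AT4G30660 differed by -1.12 ± 0.19 (adjusted p = 0.00707) and held. This family, like those of the major latex proteins, dirigent proteins and cytosolic chaperones, was assembled after the values had been seen, so its count is a description only.

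Among markers of oxidative stress and alternative respiration 1 of 4 rose and none fell. NDB2, an alternative NADH dehydrogenase on the outer face of the inner mitochondrial membrane, read 7.0, 6.91 and 6.45 untreated and 8.28, 8.16 and 8.43 under cadmium. The groups were apart, and the rise of 1.50 ± 0.24 (adjusted p = 0.00623) held without any single array. STZ (ZAT10), a zinc-finger repressor induced by many stresses, read 8.35, 8.61 and 6.75 untreated and 7.57, 7.89 and 8.25 under cadmium. Its group means were equal to 2 decimals, with the untreated arrays spread over nearly 2 units. None of the 4 measured superoxide, peroxide and ascorbate enzymes passed. The nearest was ATMDAR2, a monodehydroascorbate reductase that restores ascorbate, at 9.96, 10.15 and 9.81 untreated and 10.69, 10.29 and 10.31 under cadmium (0.46 ± 0.14, adjusted p = 0.107). In the fermentation list 1 of 3 fell, PDC2, a pyruvate decarboxylase, which opens ethanol fermentation. PDC2 read 9.96, 8.84 and 9.0 untreated and 8.26, 7.0 and 6.81 under cadmium, with replicate 1 the highest in both groups. Its difference of -1.91 ± 0.38 (adjusted p = 0.0176) was lost without untreated replicate 1, cadmium replicate 2 or cadmium replicate 3, and on the 6 arrays alone. The lactate dehydrogenase gene AT4G17260 differed by 0.08.

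Class III peroxidases, secreted enzymes that use hydrogen peroxide to stiffen or loosen the wall, changed in both directions. Of 55 measured, 4 rose and 5 fell, and the median of the family was 0.08, against the 1.15% and 2.05% of single-gene probe sets that rose and fell. Below AT4G36430, the rises were AT3G49960 at 1.57 ± 0.32 (adjusted p = 0.0195), AT5G19890 at 0.80 ± 0.19 (adjusted p = 0.0457) and AT4G11290 at 0.68 ± 0.16 (adjusted p = 0.0389). AT5G39580 fell most, from 8.96, 8.86 and 6.6 to 5.11, 4.89 and 4.84 (-3.19 ± 0.55, adjusted p = 0.00812). Untreated replicate 3 was far below its group but above all treated arrays. AT2G37130 read 11.32, 11.73 and 11.35 untreated and 10.06, 9.69 and 9.64 under cadmium (-1.67 ± 0.16, adjusted p = 0.000201). AT5G15180, AT4G26010 and AT5G51890 differed by -1.36 (adjusted p = 0.0367), -1.29 (adjusted p = 0.0438) and -0.81 (adjusted p = 0.00153). The calls of AT4G36430, AT5G39580, AT2G37130 and AT5G51890 held without any single array. Among the rest, AT3G49960 was lost without untreated replicate 3, cadmium replicate 1 or cadmium replicate 3, and AT5G19890 without any array but cadmium replicate 1. AT4G11290 was lost without any but untreated replicate 1, AT5G15180 without untreated replicates 1 or 2 or cadmium replicates 2 or 3, and AT4G26010 without any but untreated replicate 3. Over all 55 members the number of risers was 1 without untreated replicate 3 or cadmium replicate 3, 2 without untreated replicate 2 or cadmium replicate 1, and 3 without cadmium replicate 2, where AT5G06730 passed and AT5G19890 and AT4G11290 did not. The number of fallers was 3 without untreated replicates 1 or 2 or cadmium replicates 2 or 3, and 4 without cadmium replicate 1. It was 6 without untreated replicate 3, where AT1G44970 passed as well.

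Of 51 measured UDP-glycosyltransferases, which attach sugars to hormones, phenolics and foreign compounds, 6 rose and none fell, where 1.15% of single-gene probe sets rose and 2.05% fell. The median of the family was 0.23 with 43 members differing upward, against 0.02 over all single-gene probe sets, of which 7444 of 13513 differed upward. Of the risers 3, UGT72E1, UGT72E2 and UGT72E3, belong to a subfamily that glucosylates monolignols, the building blocks of lignin. UGT72E1 read 7.44, 6.8 and 7.57 untreated and 8.53, 8.52 and 8.81 under cadmium (1.35 ± 0.29, adjusted p = 0.0249). UGT72E2 read 8.55, 8.12 and 8.66 against 9.31, 9.55 and 9.82 (1.12 ± 0.27, adjusted p = 0.0471). UGT72E3 read 5.82, 5.29 and 5.79 untreated and 6.66, 6.17 and 6.37 (0.77 ± 0.18, adjusted p = 0.0389). In each of the 3 the groups lay apart by less than a unit. The others were UGT84A4, which esterifies hydroxycinnamic acids (1.01 ± 0.22, adjusted p = 0.0266), UGT74D1, which acts on auxin (0.92 ± 0.22, adjusted p = 0.0405), and UGT71C1 (0.80 ± 0.17, adjusted p = 0.0213). None of the 6 calls held under every array left out. The count over all 51 was 0 without untreated replicate 2 or cadmium replicate 3, 1 without untreated replicate 1, 2 without untreated replicate 3 or cadmium replicate 1, and 3 without cadmium replicate 2. Of the 2 without cadmium replicate 1, only UGT71C1 is among the 6, the other being UGT73B4. The count was 2 on the 6 arrays alone and 4 on arrays high in 25S. HCT, an acyltransferase on the way to lignin, differed by -0.30 and did not pass (adjusted p = 0.481).

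Glutathione S-transferases, which join glutathione to reactive compounds, gave 3 rises and no fall in 14, with a median of 0.14, where 1.15% of single-gene probe sets rose and 2.05% fell; the same shares apply to the other families here. GSTU27 read 9.27, 10.02 and 9.47 untreated and 10.77, 10.65 and 10.52 under cadmium (1.06 ± 0.17, adjusted p = 0.00666). ATGSTF13 read 4.96, 4.96 and 4.74 against 5.97, 5.9 and 5.7 (0.97 ± 0.16, adjusted p = 0.00666). Both held without any single array. GSTU18, at 4.75, 4.96 and 4.93 against 5.27, 5.43 and 5.4, differed by 0.49 (adjusted p = 0.0324) and was lost without any array but cadmium replicate 1 and in 6 other refits. Other thiol proteins moved little. Of 19 glutaredoxins, which use glutathione as electron donor, 1 rose, AT5G11930, by 0.56 ± 0.13 from near the floor (adjusted p = 0.0427), and that call was lost without any of the 6 arrays. Of 9 thioredoxins none passed, with a median of -0.17 and a range of -0.40 to 0.21. Among 24 cytochromes P450, oxygenases of specialised metabolism, 1 rose and none fell. It was CYP71B26, at 5.59, 5.57 and 5.81 untreated and 7.56, 7.34 and 7.25 under cadmium (1.73 ± 0.13, adjusted p = 4.38e-05).

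**Figure D4:**
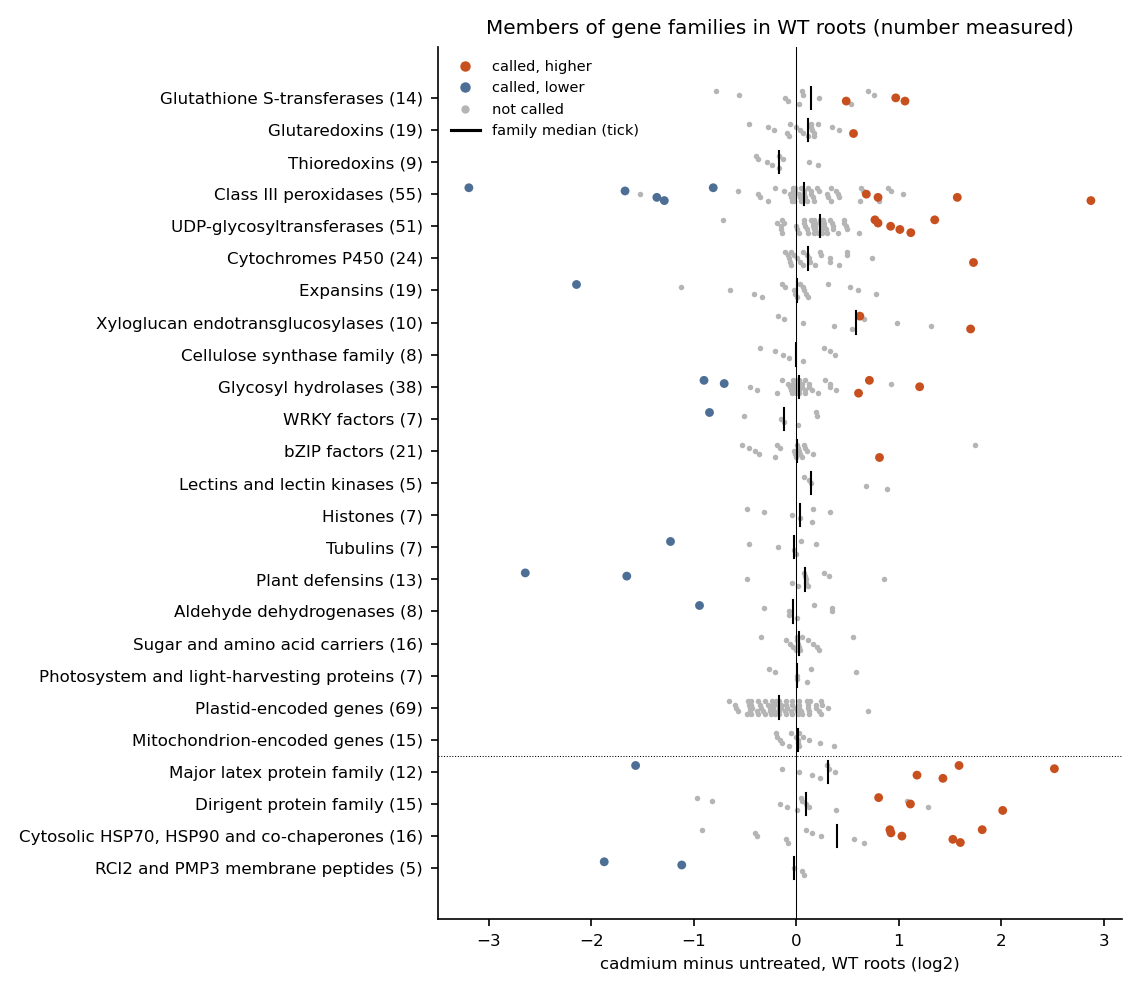
Log2 difference between cadmium-treated and untreated WT roots for each measured member of 25 gene families, with the number of members in brackets, orange for members that rose, blue for those that fell, grey for those that did not pass and a black tick at the family median. The 4 families under the dotted line were assembled after the values had been seen; class III peroxidases spread from -3.19 to 2.87 about a median of 0.08, while the 69 plastid-encoded genes lie between -0.66 and 0.70 with none past the test.

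Wall enzymes outside the peroxidases changed in few members, where 1.15% of single-gene probe sets rose and 2.05% fell. Of 10 xyloglucan endotransglucosylases, which cut and rejoin the hemicellulose xyloglucan, 2 rose and none fell, with a median of 0.58. XTH19 read 6.31, 5.67 and 6.69 untreated and 8.14, 7.76 and 7.87 under cadmium (1.70 ± 0.34, adjusted p = 0.018), and EXGT-A3 (XTH27) read 8.58, 8.19 and 8.66 against 9.15, 9.03 and 9.11 (0.62 ± 0.13, adjusted p = 0.0243). Both calls were fragile. That of XTH19 was lost without untreated replicates 1 or 2 or cadmium replicates 1 or 3, that of EXGT-A3 without any array but untreated replicate 3, and both on arrays high in 25S. Without untreated replicate 1, when both were lost, XTH18 passed as a rise. Apart from EXLA1, none of 19 expansins passed, and none of 8 cellulose synthase-type genes did. Of 38 glycosyl hydrolases 3 rose and 2 fell. PYK10, a beta-glucosidase stored in endoplasmic reticulum bodies of roots, read 11.98, 11.86 and 12.13 untreated and 12.7, 12.56 and 12.85 under cadmium. Its rise was small but clear of the spread (0.71 ± 0.12, adjusted p = 0.00694) and held without any array, as did that of BGLU47 (1.2 ± 0.21, adjusted p = 0.00978). BGLU25 at 0.61 (adjusted p = 0.0411) was lost without any of the 6 arrays, and BGLU16 at -0.90 (adjusted p = 0.0287) without any but cadmium replicate 1. The count of falls, with BGLU42, was 0 without untreated replicate 2 or cadmium replicate 2, 1 without untreated replicates 1 or 3 or cadmium replicate 3, and 2 without cadmium replicate 1. PYK10 was also the 1 riser among 4 measured members of the glucosinolate list, though it is not itself a gene of glucosinolate synthesis. UGT74B1 on that list differed by 0.27 and did not pass (adjusted p = 0.79). BCAT4, an aminotransferase of aliphatic glucosinolate synthesis, read 9.89, 9.6 and 10.01 untreated and 9.68, 9.2 and 8.19 under cadmium, a difference of -0.81 that did not pass (adjusted p = 0.293).

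A further pair of families was assembled after the values had been seen, so their counts are a description only. Among single-gene probe sets 1.15% rose and 2.05% fell. Of 12 major latex proteins, which have a pocket for hydrophobic ligands, 4 rose and 1 fell, with a median of 0.31. AT1G14960 read 5.14, 5.06 and 5.46 untreated and 8.02, 7.32 and 7.87 under cadmium (2.52 ± 0.31, adjusted p = 0.00108). AT4G14060 read 5.82, 6.21 and 6.15 untreated and 7.71, 7.2 and 8.03 under cadmium (1.59 ± 0.28, adjusted p = 0.00955). AT3G26450 and AT4G23670 rose by 1.43 and 1.18 (adjusted p = 0.0452 and 0.0257), both lost without any array but cadmium replicate 1. AT1G70880 went the other way, from 8.73, 9.04 and 8.5 to 7.4, 7.23 and 6.94 (-1.57 ± 0.22, adjusted p = 0.00278). Of 15 dirigent proteins, which guide the coupling of phenolic radicals into lignans and lignin, 3 rose and none fell, with a median of 0.09. AT4G11190 read 5.47, 5.43 and 5.63 untreated and 7.66, 6.62 and 8.29 under cadmium, so that the treated arrays spread over more than a unit (2.01 ± 0.38, adjusted p = 0.0143). That call was lost without untreated replicates 1 or 2 or cadmium replicate 3. AT1G55210, at 1.11 (adjusted p = 0.0452), was lost without any of the 6 arrays. AT4G11210 rose by 0.80 ± 0.13 (adjusted p = 0.00511) and held. The dirigent count was 1 without untreated replicates 1 or 2 or cadmium replicate 3, and 2 without any other single array. The latex protein count of rises was 2 without any single array but cadmium replicate 1, without which it was 4.

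None of the 5 measured small heat shock proteins passed, while part of the cytosolic HSP70 machinery rose. All 7 measured members of the heat shock list differed upward, 1 passed, and the median was 0.63. That gene, AT2G20560, a DnaJ-type partner of HSP70, read 4.78, 4.95 and 4.57 untreated and 6.59, 6.23 and 6.28 under cadmium (1.60 ± 0.30, adjusted p = 0.0133), a call lost without untreated replicate 1. AT5G48570, a heat-induced immunophilin, read 4.94, 4.51 and 4.65 untreated and 6.62, 5.28 and 5.67 under cadmium, with replicate 1 highest, and its difference of 1.16 ± 0.50 did not pass (adjusted p = 0.307). ATHSP22.0, of the endoplasmic reticulum, differed by 0.00. A wider set, for cytosolic HSP70, HSP90 and co-chaperones, was assembled after the values had been seen. No HSP90 gene was among its 16 measured members. Of these 16, 6 rose, none fell and the median was 0.40, where 1.15% of single-gene probe sets rose and 2.05% fell. AT3G09440, a cytosolic HSP70, read 8.56, 8.31 and 8.23 untreated and 9.74, 10.17 and 10.63 under cadmium (1.81 ± 0.34, adjusted p = 0.0143). Hop3, which links HSP70 to HSP90, read 4.43, 4.2 and 4.2 against 6.25, 5.07 and 6.09 (1.53 ± 0.31, adjusted p = 0.0195). Fes1A, an exchange factor of HSP70, differed by 1.03 (adjusted p = 0.0387), the DnaJ gene AT4G28480 by 0.92 (adjusted p = 0.0102) and Hsp70-2 by 0.91 (adjusted p = 0.0231). Of the 6 calls, that of AT4G28480 alone held whichever single array was left out. AT3G09440 was lost without untreated replicate 2 or cadmium replicates 2 or 3, Hop3 without any but cadmium replicate 2, and Fes1A and Hsp70-2 without any but cadmium replicate 1. The count of rises was 2 without untreated replicates 1 or 2 or cadmium replicate 3, and 3 without untreated replicate 3 or cadmium replicate 2. Fes1A and Hsp70-2 were also lost with all 24 arrays in a model, where the count was 4.

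Defensins, small cysteine-rich proteins active against fungi, gave 2 falls and no rise in 13. For this and the next families, 1.15% of single-gene probe sets rose and 2.05% fell. PDF2.1 (AT2G02120) read 6.85, 7.19 and 7.25 untreated and 4.3, 4.34 and 4.72 under cadmium, near the floor, a difference of -2.64 ± 0.26 (adjusted p = 0.000276). LCR69 (AT2G02100, also named PDF2.2) read 10.14, 10.26 and 10.56 against 8.56, 8.48 and 8.96 (-1.65 ± 0.18, adjusted p = 0.00043). Both held without any single array. PDF1.2, the jasmonate- and ethylene-induced defensin, stayed at 4.48 to 5.05 on the 6 arrays and differed by 0.27 (adjusted p = 0.597). TUB9, a beta-tubulin, was the 1 of 7 tubulins to pass, at 9.59, 9.75 and 9.73 untreated and 8.77, 8.44 and 8.17 under cadmium (-1.23 ± 0.19, adjusted p = 0.00489). ALDH6B2, an aldehyde dehydrogenase of valine breakdown, differed by -0.95 ± 0.15 (adjusted p = 0.00471), the 1 of 8 in its family. Of transcription factor families, 1 of 7 WRKY factors fell, WRKY6 at -0.85 (adjusted p = 0.0387), and 1 of 21 bZIP factors rose, bZIP44 at 0.81 (adjusted p = 0.0265). WRKY6 was lost without untreated replicates 1 or 2 or cadmium replicates 1 or 2, and bZIP44 without any of the 6 arrays. Both were also lost on arrays high in 25S. The WRKY6 call was lost as well on the 6 arrays alone, with quantile normalization again and with the 25S covariate.

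Several groups held no member that passed. These were the 5 listed auxin genes with a median of 0.00 and the 6 listed autophagy genes with -0.09. The ethylene factor EIN3 at -0.19 and the cytokinin response regulator ARR15 at 0.01 did not pass either. ATG8D, an autophagy gene outside the list, did fall (-0.94 ± 0.21, adjusted p = 0.0304). All 4 measured genes of cell division differed downward without passing, with a median of -0.38. The largest difference there was that of AUR1, an Aurora kinase of mitosis, which read 6.61, 6.43 and 6.15 untreated and 6.07, 5.66 and 5.58 under cadmium (-0.63 ± 0.22, adjusted p = 0.173). Of 69 plastid-encoded genes none passed, 21 differed upward and the median was -0.17, and of 15 mitochondrion-encoded genes none passed, with a median of 0.01. Jasmonate, nitrate and aquaporin genes had no measured member among their lists. Over the 19 lists of function that had any, 69 genes were measured, of which 9 rose and 7 fell, where 1.15% of single-gene probe sets rose and 2.05% fell and nothing is read from these counts.

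Roots of oas-a1.1 had the same treatment, and their differences were taken from other arrays than the WT differences. Both contrasts were tested in the same model, with an error for each gene that they share. Genes called in WT roots with a small error are thereby favoured to pass in mutant roots. The counts of genes that passed there are therefore not independent of the WT calls and are a description only. The 15 genes chosen for the largest rises in WT roots differed upward in 14 cases in the mutant roots, and 10 of them passed there, against 2.46% of all probe sets that rose in mutant roots. Of the 15 largest falls, 14 differed downward and 10 passed, against 1.81%. COR27 fell by 3.51 in WT roots and fell by 3.54 in mutant roots on the log2 scale, with a difference of -0.03 ± 0.26 between the responses. GR1 rose by 1.79 ± 0.13 in mutant roots (adjusted p = 3.62e-05), with a difference of -0.38 ± 0.18 (adjusted p = 0.604). AT4G36430 rose by 3.13 ± 0.29 and OCT1 by 2.23 ± 0.23 there. The median responses were 2.01 in WT and 1.54 in mutant roots for the 15 rises, and -2.64 and -1.55 for the 15 falls. Since the genes were picked on their WT values, a smaller median in the mutant is not a result. The difference of the responses passed for 3 of the 30, AT2G36690, AT4G33980 and AT3G15630, and for 0.747% of all probe sets. Choosing genes by large WT values itself moves this difference, so nothing is read from these shares. That of AT4G33980 (1.73 ± 0.28, adjusted p = 0.0253) was lost without untreated WT replicates 1 or 2 or cadmium WT replicate 2, and that of AT3G15630 (1.81 ± 0.32, adjusted p = 0.0321) without untreated WT replicates 1 or 2 or cadmium WT replicates 1 or 3. AT2G36690 differed by -0.06 in mutant roots, where it stood at 8.01 ± 0.35 (SD) untreated and 7.94 ± 0.32 under cadmium, a difference of the responses of -2.04 ± 0.28 (adjusted p = 0.0129) that held without any WT array. On arrays high in 25S none of the 3 passed. AT5G39580 differed by 0.58 in mutant roots and AT5G62360 by -2.60, with differences of the responses of 3.77 (adjusted p = 0.0567) and 1.87 (adjusted p = 0.0809) that did not pass. Over all calls, 311 of the 372 rises (83.6%) and 424 of the 517 falls (82.0%) had the same sign in mutant roots, where 46.7% of all probe sets differed upward.

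**Figure D5:**
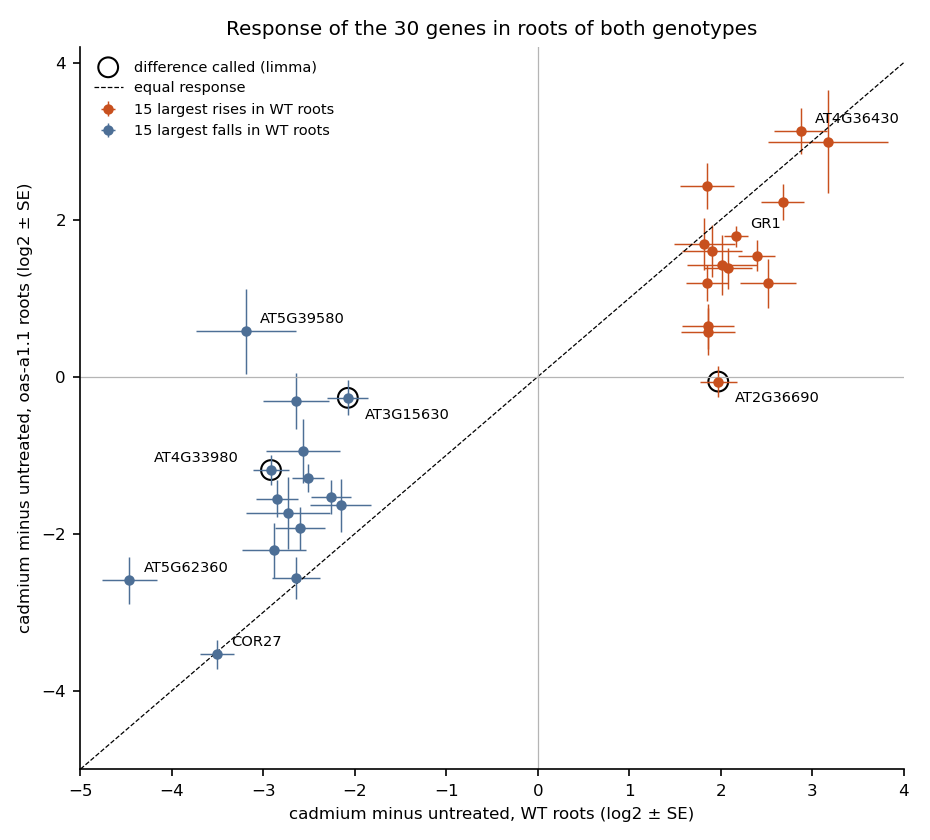
Log2 difference between cadmium and untreated for the 15 largest rises (orange) and 15 largest falls (blue) of WT roots, in WT roots (horizontal) and in oas-a1.1 roots (vertical), with bars of 1 standard error from limma and a dashed line of equal response. AT4G36430 and COR27 lie near the line, and black circles mark AT2G36690, AT4G33980 and AT3G15630, for which the difference of the responses passed.

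In WT shoots the treatment lasted 24 h, so organ and time differ together and the values are only set side by side. Of the 15 root rises, 3 also passed as rises in shoots, against 2.95% of all probe sets, namely GR1 at 0.77 (adjusted p = 0.00904), AT1G47400 at 2.77 (adjusted p = 0.0394) and AT1G73600 at 2.92 (adjusted p = 9.47e-05). Of the 15 root falls, 3 passed as falls, against 2.64%, namely COR27 at -3.81 (adjusted p = 1.97e-06), AT4G33980 at -1.23 (adjusted p = 0.000466) and AT1G11210 at -0.45 (adjusted p = 0.0468). AT4G36430, AT5G39580 and OCT1, with root differences of 2.87, -3.19 and 2.68, differed in shoots by -0.01, 0.04 and -0.02.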

How the data were processed

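The series holds 24 ATH1 arrays of root and shoot RNA. The log2 values were used as deposited; per the submitters' processing notes the authors made them with RMA and the affy package. RMA corrects background, matches the distributions of the arrays and summarises each probe set, so a shift shared by most genes is removed. Neither the versions nor whether all arrays were normalized together are given in the sources used here. The labels gave each array its group and replicate number.

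All 22746 non-control probe sets were fitted, without a filter on level, by limma 3.58.1 in R 4.3.3, with a mean for each of the 4 root groups over 12 arrays and empirical Bayes moderation. Contrasts were two-sided, with p-values adjusted by Benjamini and Hochberg over all probe sets and called under 0.05, and the script was tested on simulated data. Errors after ± are standard errors of the model unless marked SD. WT shoots had a model of their own organ. The members, gene lists and tests were chosen with earlier results of these data known, and lists and families were described by counts and medians only.

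Gene names came from the platform annotation, with 13436 of the 13513 single genes matched to RefSeq (TAIR10.1), most under a locus tag; roles and names in brackets are general knowledge. Named were the 15 largest called rises and falls whose groups did not overlap, list members (at most 4 called and 2 others), and called members of families with at least 5 measured members, at most 3 in each direction; further called members of such families, and further list members that did not pass, were named after their values were seen. Of 576 list entries 79 were measured, and a list result covers those only. bHLH121 and ATG8D were named from outside the lists after their values were seen. They are not among the named genes counted or followed through the refits. Same-numbered cadmium and untreated WT arrays had residual correlations of 0.601, -0.154 and 0.44 for replicates 1, 2 and 3. The main model did not treat the numbers as pairs, although replicates 1 and 3 were positively correlated. An effect shared by replicate number was not tested beyond a refit with that number as a block, which gave 1547 calls against 889. Alternatives were 10 other fits, scalings or filters and the omission of each of the 6 arrays.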

Additional observations from a re-analysis of the deposited data

Results flagged for a closer look

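For 9 of the named genes the cadmium response differed between oas-a1.1 and WT roots, each by a test of the difference itself (limma interaction contrast, adjusted over all probe sets, of which 0.747% passed). Many of the named genes were chosen by their WT values, which enter this difference, so the count is not read against that share. The difference is the mutant response minus the WT response, on the log2 scale, from 3 arrays in each of the 4 groups. In 6 genes it was positive. AT5G52750, of the heavy-metal-associated domain proteins, responded by 0.84 in WT and 3.61 in mutant roots, a difference of 2.76 ± 0.39 (adjusted p = 0.0129). PDC2, the pyruvate decarboxylase gene, responded by -1.91 in WT and 1.19 in mutant roots, a difference of 3.1 ± 0.54 (adjusted p = 0.0312). WRKY53, a transcription factor of senescence and defence, differed by 2.08 ± 0.38 (adjusted p = 0.0368), with 0.20 in WT and 2.28 in mutant roots. WES1, also named GH3.5, which conjugates auxin and salicylic acid to amino acids, differed by 0.96 ± 0.17 (adjusted p = 0.0363), with 0.16 and 1.12. AT3G15630 differed by 1.81 (adjusted p = 0.0321) and AT4G33980 by 1.73 (adjusted p = 0.0253), with mutant responses of -0.27 and -1.19. In the other 3 the difference was negative. XTH19 differed by -2.68 ± 0.48 (adjusted p = 0.0354), with 1.70 in WT and -0.98 in mutant roots, AT2G36690 by -2.04 (adjusted p = 0.0129), and the dirigent gene AT4G11210 by -1.11 ± 0.18 (adjusted p = 0.0253), with 0.80 and -0.31.

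On arrays high in 25S only the difference of PDC2 passed. Of the 9, those of AT5G52750 and AT2G36690 passed without each of the 6 WT arrays in turn. PDC2 was lost without untreated WT replicates 1 or 2 or cadmium WT replicates 2 or 3, AT4G11210 without untreated WT replicates 1 or 2 or cadmium WT replicate 1, and XTH19, WRKY53 and WES1 without any WT array but untreated replicate 3. Mutant arrays were not left out 1 at a time, and the refit on arrays high in 25S left out replicate 1 of both oas-a1.1 root groups.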

How the results depend on the processing

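With an array left out, the count of calls ran from 428 to 829, rises from 194 to 272, falls from 229 to 557, calls of at least 2-fold from 296 to 475, against 442 over all arrays, and differing responses among the 30 genes from 1 to 4, against 3. With all 24 arrays in a model there were 1409 calls, 870 of them falls. Array weights gave 1837, with 594 rises and 1243 falls, and the 25S covariate gave 840 falls. The replicate block gave 1547 calls, 567 rises and 980 falls; it ended the call of no named gene. Differing responses among the 30 numbered 7 in the upper 60% by level, 6 with arrays centred on their medians, 5 with quantile normalization again, 5 with a trended and robust prior, 9 with all 24 arrays, 8 with array weights, 7 with the replicate block and 0 on arrays at or above 7 in 25S. The causes were not tested. On 6 arrays alone there were 648 calls. No named call changed sign under any of the 16 settings. Of 81 called named genes, 45 kept their call without any single array. Between 18 (without cadmium replicate 1) and 32 (without untreated replicate 2) calls were lost by leaving out 1 array, and 13 on the 6 arrays alone, 9 on arrays high in 25S and at most 5 in any other refit. With 3 arrays a group and no detection calls, genes near the floor are read least surely, and a p that misses the threshold does not show that a gene did not change.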
